A study of Mus musculus with 40 samples.

Results

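The 10 genes described here, Fos, Fosb, Jun, Junb, Egr1, Egr2, Atf3, Ier2, Dusp1 and Nr4a1, are immediate early genes. They were chosen by symbol and not by a rule on measured values, but with earlier results of these data known. All 10 were found among the 45706 genes of the count and RPKM tables (read counts scaled by gene length and library size), in all 40 libraries, with 4 libraries in each of 10 groups. The libraries hold RNA of 4 cell types, namely neutrophils, monocytes, epithelial cells and stromal cells, which had been sorted by surface proteins from mice with and without colon tumors. Tumor-bearing mice carried Apc fl/fl alleles and the Cdx2CreERT2 transgene on a mixed C57Bl6/Sv background, given by the labels with a different number in each sample, from C57Bl6/Sv129 to C57Bl6/Sv152, and had received a single intraperitoneal injection of Tamoxifen at 25 mg/kg when 8 to 10 weeks old. Healthy mice were C57Bl6, with no transgene and no agent. Strain, transgene, Tamoxifen and tumor therefore changed together in each comparison of tumor-bearing with healthy mice and cannot be told apart. The Cre is driven by the Cdx2 promoter, which is active in the colon epithelium, so the neutrophils, monocytes and stromal cells of these mice are not the cells in which Apc is meant to be lost. Tumor neutrophils, tumor monocytes, tumor epithelial cells and tumor stromal cells came from minced tumors treated with collagenase IV, Dispase and DNase I, and healthy epithelial and stromal cells from colon treated in that way. Blood neutrophils and monocytes were taken from healthy and from tumor-bearing mice after lysis of red blood cells, with no enzyme digestion, and some blood libraries pooled cells of 2 animals.

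Immediate early genes are transcribed within minutes of a stimulus from factors that are already present in the cell, such as SRF with its ELK partners and CREB, without new protein synthesis. Many encode transcription factors that then set off later genes, and their mRNAs and proteins are short-lived. Growth factors, cytokines, adhesion, heat and the handling of a tissue can all induce them, and enzyme digestion at warm temperature is a well-known inducer in dissociated cells. Fos and Fosb encode partners of Jun and Junb in the AP-1 transcription factor. Egr1 and Egr2 encode zinc finger factors, Atf3 a stress-induced member of the ATF and CREB family, and Nr4a1 an orphan nuclear receptor. Ier2 encodes a small nuclear protein, and Dusp1 a phosphatase that switches off the MAP kinases p38, JNK and ERK.

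The promoters of 4 members are shown because they carry the core TGACG of the cAMP response element (CRE), the sequence that CREB and ATF proteins bind and that many immediate early promoters share. They were read from RefSeq GRCm38.p6, the assembly also called mm10, and hold 300 bases each from upstream of the start site into the transcript. Capitals mark TGACG or its reverse complement CGTCA.
Fos, chr12:85473640-85473939, plus strand: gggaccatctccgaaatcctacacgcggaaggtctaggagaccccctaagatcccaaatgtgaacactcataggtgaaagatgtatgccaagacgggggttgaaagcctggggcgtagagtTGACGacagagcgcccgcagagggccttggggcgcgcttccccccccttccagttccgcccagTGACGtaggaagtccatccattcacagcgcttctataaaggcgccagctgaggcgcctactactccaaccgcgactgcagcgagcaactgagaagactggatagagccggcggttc
Fosb, chr7:19309996-19310295, minus strand: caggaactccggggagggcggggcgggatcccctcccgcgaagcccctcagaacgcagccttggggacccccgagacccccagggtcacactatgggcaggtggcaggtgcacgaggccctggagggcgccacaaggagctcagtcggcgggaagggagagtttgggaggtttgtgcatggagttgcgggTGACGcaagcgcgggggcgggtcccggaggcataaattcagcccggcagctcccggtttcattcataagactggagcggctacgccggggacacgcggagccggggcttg
Dusp1, chr17:26508423-26508722, minus strand: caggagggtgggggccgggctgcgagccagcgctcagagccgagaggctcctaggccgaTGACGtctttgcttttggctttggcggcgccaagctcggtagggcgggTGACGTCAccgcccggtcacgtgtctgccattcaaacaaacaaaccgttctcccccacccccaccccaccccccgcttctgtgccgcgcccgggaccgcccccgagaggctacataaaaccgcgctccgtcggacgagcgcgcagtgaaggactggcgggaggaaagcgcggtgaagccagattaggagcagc
Nr4a1, chr15:101266596-101266895, plus strand: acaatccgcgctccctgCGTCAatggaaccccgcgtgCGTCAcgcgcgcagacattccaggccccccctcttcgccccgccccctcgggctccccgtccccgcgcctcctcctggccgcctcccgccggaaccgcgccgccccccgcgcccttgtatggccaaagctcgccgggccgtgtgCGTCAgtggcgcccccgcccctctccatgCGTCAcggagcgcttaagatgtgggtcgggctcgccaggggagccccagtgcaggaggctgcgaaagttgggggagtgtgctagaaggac
Both strands were searched, and positions count the start site as 0. Of the 8 members whose promoter was read, 6 held TGACG or CGTCA, against 20.8% of the 32851 promoters of that length in RefSeq. Fos held it at -129 and -66, Fosb at -60, Junb at -106 and Atf3 at -7. Nr4a1 held it 4 times, at -233, -213, -69 and -40. The full palindrome TGACGTCA, which overlaps that core, stood in the Dusp1 window alone, at -143, against 1.79% of all promoters. The AP-1 site (TGACTCA or TGAGTCA) was in 0 of the 8 windows, against 5.2% of all promoters, and the SRF CArG box in 0, against 1.63%. These matches are a description of the letters in these windows. The promoters of Egr1 and Ier2 were not read, and sites outside the windows were not searched.

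Fos lies on chromosome 12 (85473890 to 85477273, mm10), Fosb on chromosome 7 (19302696 to 19310051), Jun on chromosome 4 (95049034 to 95052222) and Junb on chromosome 8 (84974484 to 84978718). Egr2 lies on chromosome 10 (67535475 to 67542188). Ier2 is also on chromosome 8 (84661331 to 84662852), Atf3 on chromosome 1 (191170296 to 191218039), Dusp1 on chromosome 17 (26505590 to 26562128) and Nr4a1 on chromosome 15 (101254269 to 101274795). Exons of Junb overlap those of Prdx2 on the other strand, those of Dusp1 overlap Ergic1 and those of Jun overlap the antisense gene Junos. Whether reads were counted by strand is not given in the sources used here, so a part of the Junb, Dusp1 and Jun values may belong to those genes. Prdx2 was at most 10.25 RPKM in any library, Ergic1 at most 6.84 and Junos at most 0.858.

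Counts on genes totaled 10717873 to 38002939 per library. Mitochondrial genes took 5.3% of the counts in the library with the smallest share and 83.9% in that with the largest, and 46.3% to 83.9% in epithelial libraries, which lowers the RPKM of every other gene there. The sorted cells carried the markers of their labels: Epcam was at 11.6 to 81.0 RPKM in epithelial cells, S100a8 at 385 to 14920 in neutrophils and Csf1r at 48.9 to 167.5 in monocytes. A clear exception was tumor stromal cells, in which 6 fibroblast markers summed to 5.97 to 24.0 RPKM against 355 to 2010 in healthy stromal cells. Tumor stromal replicates 1 and 2 had 12 epithelial markers at a sum of 262 and 143 RPKM and 5 endothelial markers at a sum of 4.52 and 3.82, whereas in replicates 3 and 4 the endothelial markers summed to 107 and 114 and 7 neutrophil markers to 1564 and 529. The fibroblast markers thus go against the label, and for the 10 genes each test that includes these cells is given with and without replicates 1 and 2. The epithelial markers also summed to 203, 48.0, 37.7 and 13.2 RPKM in tumor neutrophils and to 1.88 to 44.2 in tumor monocytes, against at most 1.59 in blood. Tumor neutrophil replicate 1, at 203, was within the range of tumor epithelial cells (169 to 434). Its 7 neutrophil markers summed to 1921 RPKM, against 5990 to 12420 in the other tumor neutrophil libraries. The part of epithelial markers in the comparisons of tumor with blood was not tested. In sorted bulk libraries, fewer cells of a type and less RNA per cell cannot be told apart.

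Immediate early genes spanned a wide range of levels over the 10 groups. The ratio of the highest to the lowest group mean was 272 for Egr1, 169.9 for Egr2, 120.4 for Fosb, 78.7 for Atf3 and 47.4 for Nr4a1. It was 22.5 for Jun, 13.3 for Junb, 13.2 for Dusp1, 8.47 for Fos and 4.28 for Ier2. Healthy colon stromal cells had the highest mean for 6 of the 10 genes, namely Fos, Fosb, Jun, Egr1, Ier2 and Nr4a1. Tumor epithelial cells led for Egr2 and Atf3, healthy blood neutrophils for Junb and tumor neutrophils for Dusp1. Healthy blood monocytes had the lowest mean for 5 genes, Fos, Fosb, Jun, Egr1 and Egr2. When RPKM was divided by the share of counts off mitochondrial genes, healthy stromal cells and tumor epithelial cells each led for 4 genes. Of the 90 neighboring groups in these orders of RPKM, 82 overlapped in the range of their libraries, so most steps in the order are within the spread of 4 libraries.

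**Figure D1:**
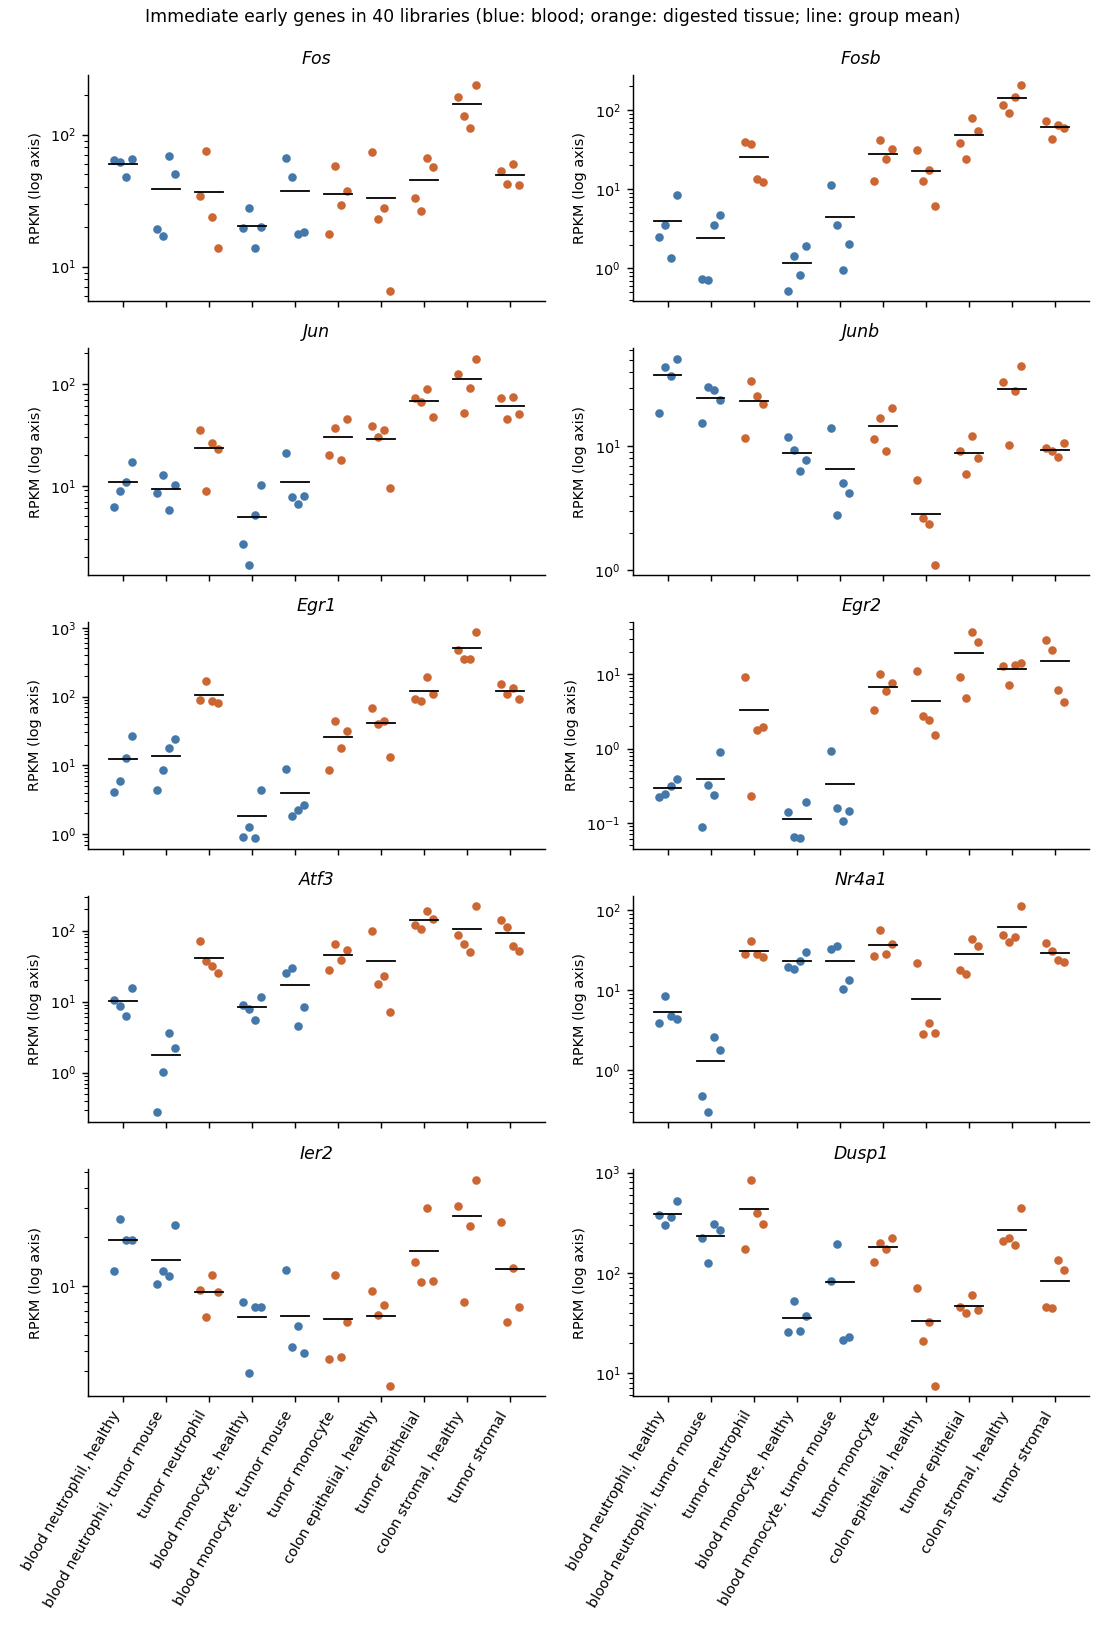
RPKM (log axes) of the 10 immediate early genes in each of 40 libraries, 4 per group. Points are libraries (blue from blood, orange from digested tissue) and lines are group means; Egr1, Egr2 and Fosb separate blood from digested tissue most clearly, while Junb, Ier2 and Dusp1 do not.

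For 3 of the 10 genes nearly all libraries from digested tissue were above every blood library. The share of all genes that separate in this way was not computed, and only digested tissue gave epithelial and stromal cells. Fosb was at 0.521 to 11.2 RPKM in the 16 blood libraries (median 1.97) and at 6.20 to 209 in the 24 digested libraries (median 38.8), and 23 of the 24 exceeded every blood library. Egr2 was at 0.0622 to 0.920 in blood (median 0.206) and at 0.227 to 36.6 after digestion (median 7.45), with 23 of 24 above all blood libraries. Egr1 was at 0.868 to 26.9 in blood (median 4.42) and at 8.55 to 859 after digestion (median 90.3), with 21 of 24 above. In all 3 genes the median library from tissue was above the highest library from blood. For Jun, 20 of the 24 digested libraries exceeded all blood libraries, for Atf3 19 and for Nr4a1 9. For Fos the count was 6, for Ier2 3, for Dusp1 1 and for Junb 0. Junb was at 2.78 to 51.6 RPKM in blood (median 14.8) and at 1.10 to 45.2 after digestion (median 10.5). Dusp1 was abundant on both sides, at 21.3 to 524 RPKM in blood (median 161) and at 7.45 to 851 after digestion (median 131).

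Tested over all 40 libraries, as the mean of the 6 digested groups against the mean of the 4 blood groups with the edgeR quasi-likelihood test, 6 of 10 genes were called higher in digested tissue and 0 lower. Here and in every comparison, calling a gene took a log2 fold change beyond 1.5 in either direction together with a Benjamini-Hochberg adjusted p below 0.05. Of all 22122 genes tested, 24.2% were called higher and 13% lower, and the median log2 fold change was 1.98 over the 10 genes and 0.27 over all genes. Egr2 rose by 4.82 (SE 0.43), Egr1 by 3.86 (SE 0.33), Fosb by 3.81 (SE 0.34), Atf3 by 3.07 (SE 0.32), Jun by 2.24 (SE 0.22) and Nr4a1 by 1.71 (SE 0.28), with adjusted p from 2.63e-12 for Egr1 to 2.03e-06 for Nr4a1. Fos differed by 0.33 (adjusted p = 0.24), Dusp1 by -0.25 (adjusted p = 0.427), Ier2 by -0.03 (adjusted p = 0.94) and Junb by -0.50 (adjusted p = 0.0302), short of the fold threshold. Blood and digested tissue also differ in cell type, since only tissue gave epithelial and stromal cells, so digestion, tissue and cell type cannot be told apart in this contrast. Without tumor stromal replicates 1 and 2 the same 6 genes were called, from Nr4a1 (1.64) to Egr2 (4.53). Several mice gave more than 1 of the 40 libraries, and the animal was not a term in this fit.

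The contrast of healthy colon with healthy blood involves no tumor, no transgene and no Tamoxifen on either side. In it 5 genes were called higher and 0 lower, beside 28.9% and 15.8% of 19845 genes tested. Egr2 was higher by 5.23 (adjusted p = 4.82e-08), Egr1 by 4.77 (adjusted p = 1.16e-06), Fosb by 4.43 (adjusted p = 3.65e-07), Jun by 2.82 (adjusted p = 1.05e-05) and Atf3 by 2.64 (adjusted p = 8.85e-05). Fos differed by 0.99 and Nr4a1 by 0.99 on the log2 scale, and Junb by -1.06, each with an adjusted p under the threshold (0.00745, 0.044 and 0.0076) but less than the fold required. Levels of Egr1, Egr2, Fosb, Jun and Atf3 above blood were thus measured in tissue without a tumor, and the cell types again differed between the sides. Some healthy mice gave more than 1 library, alone or in a pool, and the animal was not a term in this fit either.

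Neutrophils allow tumor and blood to be compared within a cell type, although the tumor cells were digested and the blood cells were not. In tumor neutrophils 4 of 10 genes, Nr4a1, Atf3, Fosb and Egr1, were called higher than in blood neutrophils of tumor-bearing mice and 0 lower, beside 11.9% and 4.41% of 13674 genes tested. The same 4 genes were the ones whose tumor libraries all lay above the blood libraries in RPKM, and 0 lay below, against 13.6% and 13.7% of all genes. The median log2 fold change was 2.05 over the 10 genes and 0.11 over all genes. The mitochondrial share of counts was 17% to 37.5% in tumor neutrophils and 9.4% to 16.8% in blood neutrophils, without overlap, and the 4 calls were the same with mitochondrial genes removed from the fit.

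Nr4a1, the nuclear receptor, was at 0.477, 0.301, 2.64 and 1.82 RPKM in the 4 libraries of blood neutrophils and at 28.4, 41.7, 28.2 and 25.9 in tumor neutrophils. All 4 tumor libraries lay above the highest blood library. Nr4a1 rose by 4.67 on the log2 scale (SE 0.78, adjusted p = 0.00267). The stress factor Atf3 was at 0.279, 1.03, 3.58 and 2.23 RPKM in blood and at 71.9, 37.3, 31.3 and 25.0 in the tumor. All tumor libraries exceeded all blood libraries, and Atf3 rose by 4.52 (SE 0.76, adjusted p = 0.00279). Fosb was at 0.728, 0.723, 3.50 and 4.80 RPKM in blood and at 39.0, 37.2, 13.6 and 12.3 in the tumor, without overlap, and rose by 3.50 (SE 0.80, adjusted p = 0.013). Egr1 was at 4.41, 8.45, 18 and 24.5 RPKM in blood and at 89.8, 166, 84.9 and 81.6 in the tumor, and rose by 3.11 (SE 0.67, adjusted p = 0.00981). Leaving out any 1 of the 8 libraries kept these 4 calls, with a highest adjusted p of 0.0423, for Egr1. This includes tumor replicate 1, which had the highest sum of epithelial markers.

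The other 6 genes were not called in tumor neutrophils. Egr2 was at 0.0892, 0.322, 0.237 and 0.907 RPKM in blood and at 9.06, 0.227, 1.79 and 1.96 in the tumor. Tumor replicate 2 was as low as blood, and the difference of 2.83 (SE 0.94) had an adjusted p of 0.0612. Without tumor replicate 2 the log2 difference was 3.12, with an adjusted p of 0.0122. Without tumor replicate 1, the library with the highest Egr2 and the highest sum of epithelial markers, it was 1.74, with an adjusted p of 0.206. Jun was higher by 1.28 (SE 0.34, adjusted p = 0.0265), less than the fold required. Fos, which was at 19.4, 16.9, 69.1 and 50.4 RPKM in blood and at 34.3, 74.8, 23.6 and 13.9 in the tumor, overlapped over most of its range and differed by 0.16 (SE 0.71, adjusted p = 0.901). Dusp1 was at 221, 126.5, 309.5 and 267 RPKM in blood and at 174, 851, 394.5 and 305.5 in the tumor, a difference of 1.18 (adjusted p = 0.243). Junb differed by 0.13 (adjusted p = 0.88) and Ier2 by -0.64 (adjusted p = 0.253). Fos and Fosb, which encode alternative partners of the Jun proteins, gave unlike values in these 8 libraries, which were compared by each gene's own test only.

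In monocytes 5 of 10 genes, Egr2, Egr1, Fosb, Jun and Atf3, were called higher in the tumor than in blood of tumor-bearing mice and 0 lower, beside 7.76% and 3.89% of 15280 genes tested. All 10 log2 fold changes were positive, with a median of 1.56 against -0.03 over all genes. In RPKM 2 genes, Fosb and Egr2, lay above blood without overlap and 0 below, against 10.6% and 16.5% of all genes. Egr2 was at 0.920, 0.158, 0.105 and 0.147 RPKM in blood monocytes and at 3.34, 10.1, 5.97 and 7.72 in tumor monocytes. Blood replicate 1 was the highest of its group and still below every tumor library, and Egr2 rose by 4.62 (SE 0.71, adjusted p = 0.00151). Egr1 was at 8.84, 1.85, 2.28 and 2.61 RPKM in blood and at 8.55, 44.1, 17.9 and 31.3 in the tumor. The overlap came from blood replicate 1 and tumor replicate 1, both from the same mouse, and Egr1 rose by 2.97 (SE 0.58, adjusted p = 0.00579). Fosb was at 11.2, 3.50, 0.948 and 2.03 RPKM in blood and at 12.7, 42.0, 24.0 and 32.2 in the tumor, and rose by 2.93 (SE 0.66, adjusted p = 0.0124).

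Jun was at 21.2, 7.79, 6.60 and 7.95 RPKM in blood monocytes and at 19.9, 36.7, 17.9 and 45.3 in tumor monocytes. Blood replicate 1 again reached the tumor range, and Jun rose by 1.72 (SE 0.39, adjusted p = 0.0138). Atf3 was at 24.9, 30.0, 4.54 and 8.49 RPKM in blood and at 28.0, 64.3, 38.6 and 53.1 in the tumor, with blood replicates 1 and 2 high. Its rise of 1.68 (SE 0.52, adjusted p = 0.0477) was near the threshold, and the call was lost on leaving out any 1 of 7 of the 8 libraries, with adjusted p from 0.0234 to 0.12. Jun lost its call without tumor replicate 4, when its log2 difference was 1.47. Nr4a1 was at 32.9, 35.6, 10.5 and 13.4 RPKM in blood and at 27.1, 55.9, 28.3 and 38.1 in the tumor. Blood replicates 1 and 2 were within the tumor range, and the difference of 0.94 (SE 0.39) had an adjusted p of 0.129. Junb differed by 1.43 (adjusted p = 0.0524), Dusp1 by 1.41 (adjusted p = 0.148), Fos by 0.17 (adjusted p = 0.833) and Ier2 by 0.17 (adjusted p = 0.837).

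**Figure D2:**
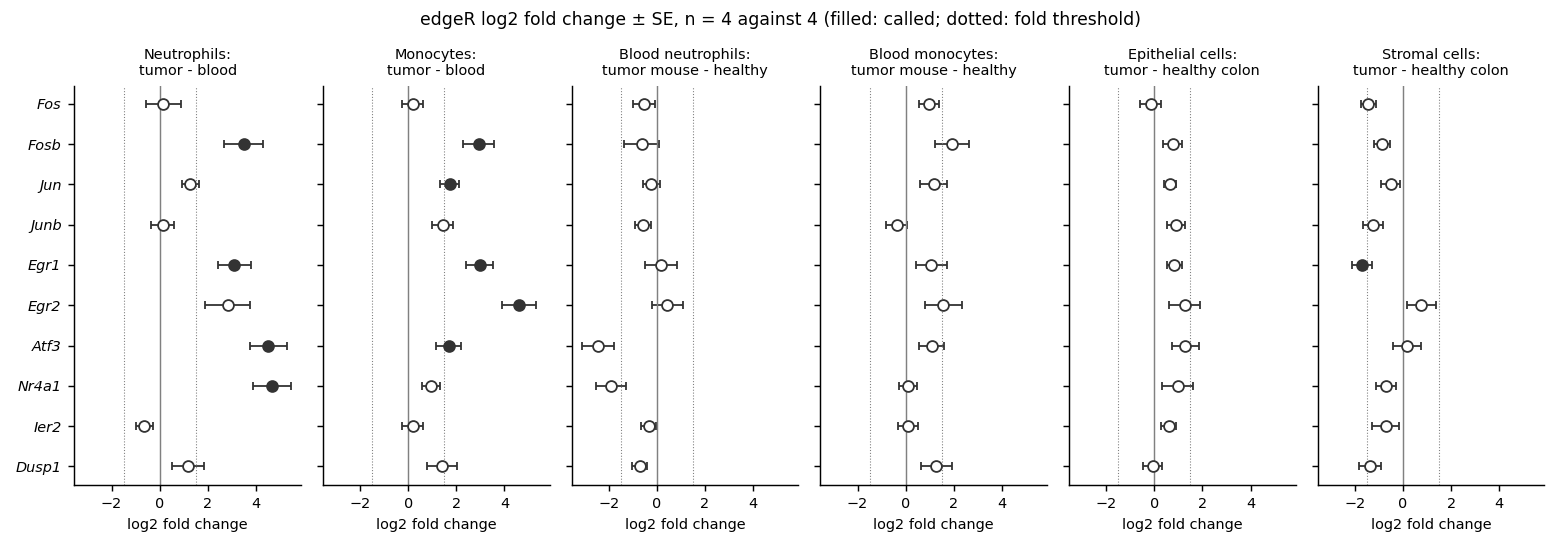
Log2 fold change of each immediate early gene with its standard error (edgeR, 4 against 4 libraries) in 6 comparisons. Filled points passed the adjusted p and fold thresholds; 4 genes did so in tumor against blood neutrophils, 5 in monocytes, 0 in either blood comparison, 0 in epithelial cells and 1, Egr1, in stromal cells, where it was lower.

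An interaction term, fitted to 16 libraries, compared the step from blood to tumor in neutrophils with that in monocytes. Nr4a1 was called, with a change 3.63 log2 units higher in neutrophils (SE 0.86, adjusted p = 0.0248), and 0 genes were called lower, beside 2.73% and 1.23% of 17465 genes tested. The levels show where this difference lay: Nr4a1 was low in blood neutrophils and already at 10.5 to 35.6 RPKM in blood monocytes, while tumor neutrophils (25.9 to 41.7) and tumor monocytes (27.1 to 55.9) overlapped. The call was lost on leaving out any 1 of 6 of the 16 libraries, with adjusted p up to 0.0573. Atf3 followed with a difference of 2.71 (SE 0.90, adjusted p = 0.0958). For the other 8 genes the adjusted p was 0.261 or more. The difference was -1.96 for Egr2 (adjusted p = 0.355), -1.41 for Junb (adjusted p = 0.261) and 0.03 for Egr1 (adjusted p = 0.992). A mouse that gave blood neutrophils also gave tumor neutrophils, and another gave both kinds of monocyte library. Several mice gave both cell types from the tumor, and several gave both from blood, alone or in a pool. The groups are therefore not fully independent.

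Blood was compared between tumor-bearing and healthy mice, where neither side was digested. In blood neutrophils 0 of 10 genes were called, beside 1.79% called higher and 2.22% called lower of 13360 genes tested, and 3 of the 10 had an unadjusted p under 0.05. In RPKM 0 genes lay above without overlap and 2 below, Atf3 and Nr4a1, against 6.38% and 7.75% of all genes. Atf3 was at 10.5, 8.81, 6.29 and 15.8 RPKM in healthy mice and at 0.279 to 3.58 in tumor-bearing mice. The highest tumor-bearing library was thus below the lowest healthy one, and the difference of -2.46 (SE 0.66) had an adjusted p of 0.0549. Nr4a1 was at 3.95, 8.57, 4.77 and 4.33 RPKM in healthy mice and at 0.301 to 2.64 in tumor-bearing mice, also without overlap, and differed by -1.92 (SE 0.63, adjusted p = 0.102). DESeq2 and limma-voom called both genes lower, with adjusted p of 0.00148 and 0.0231 for Atf3 and 0.0161 and 0.0278 for Nr4a1. Both genes were called higher in tumor neutrophils against blood neutrophils of tumor-bearing mice, a comparison that uses the same 4 libraries from the blood of tumor-bearing mice. Against healthy blood neutrophils, tumor neutrophils still had higher Atf3 (25.0 to 71.9 RPKM) and Nr4a1 (25.9 to 41.7) in every library. The remaining 8 genes differed by -0.72 for Dusp1 to 0.44 for Egr2, with adjusted p of at least 0.226.

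In blood monocytes 0 of 10 genes were called with edgeR, beside 0.0914% called higher and 0.118% called lower of 15313 genes tested, and 2 of the 10 had an unadjusted p under 0.05. DESeq2 and limma-voom called 0 as well. In RPKM 0 genes lay above and 0 below without overlap, against 2.3% and 5.06% of all genes. The log2 fold changes of 9 genes were positive, with a median of 1.07 against 0.02 over all genes. Fosb, at 0.521, 1.42, 0.824 and 1.91 RPKM in healthy mice and 11.2, 3.50, 0.948 and 2.03 in tumor-bearing mice, differed by 1.93 (SE 0.70, adjusted p = 0.393). Fos was at 13.8 to 27.6 RPKM in healthy mice and at 66.8, 47.6, 17.7 and 18.5 in tumor-bearing mice. For both genes replicates 1 and 2 of the tumor-bearing mice were high and replicates 3 and 4 were in or near the healthy range.

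In tumor-bearing mice this split within blood groups moved with markers of erythroid cells and platelets. Their 5 markers summed to 614, 397, 5.19 and 28.3 RPKM in blood monocytes of tumor-bearing mice and to 9.83, 94.4, 791 and 694 in blood neutrophils of these mice. In monocytes replicates 1 and 2 were the 2 highest libraries for 6 of the 10 genes, Fos, Fosb, Egr2, Atf3, Dusp1 and Nr4a1, as they were for 29.9% of 15404 genes. In neutrophils replicates 3 and 4 were the 2 highest for 6 of the 10, Fos, Fosb, Egr1, Atf3, Dusp1 and Nr4a1, and for 14.5% of 13166 genes. In healthy mice the sums also ranged widely, from 5.25 to 676 RPKM in neutrophils and from 2.39 to 642 in monocytes. There the 2 libraries with the highest sums were the 2 highest for 0 of the 10 genes in neutrophils and 1 in monocytes, against 35.3% and 24.3% of all genes. The same libraries were the 2 lowest for 3 of the 10 genes in neutrophils and 2 in monocytes, against 11.2% and 13.3% of all genes. This pattern was chosen for description after its values were seen, and the part of red cell and platelet RNA in it was not tested.

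Epithelial cells from tumor and healthy colon had both been digested. There 0 of 10 genes were called with edgeR, beside 7.52% called higher and 7.88% called lower of 16085 genes tested, and 4 of the 10 had an unadjusted p under 0.05. DESeq2 also called 0, and limma-voom called 2. The median log2 fold change was 0.79 over the 10 genes and -0.01 over all genes. In RPKM 5 genes, Jun, Junb, Egr1, Atf3 and Ier2, lay above healthy colon without overlap and 0 below, but so did 20.6% and 2.44% of all genes. On the scale of non-mitochondrial counts 0 of the 10 separated, and the share of all genes on that scale was not computed. Atf3 was at 99.6, 17.8, 22.7 and 7.23 RPKM in healthy epithelium and at 121, 104, 189 and 147 in tumor epithelium. Healthy replicate 1 stood far above the other healthy libraries, and the difference of 1.28 (SE 0.57) had an adjusted p of 0.139. That library was also the highest of its group for Egr2 (10.9 RPKM against 1.504 to 2.73) and for Nr4a1 (21.9 against 2.85 to 3.86). Without it 3 genes were called higher in tumor epithelium, Atf3 by 2.36 (adjusted p = 0.000325), Egr2 by 1.99 (adjusted p = 0.0463) and Nr4a1 by 1.85 (adjusted p = 0.0398). This library was singled out after it was seen to be high for these 3 genes, so their calls without it depend on that choice. Over all genes, 2801 were called without it and 2476 with it.

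Egr1 was at 68.9, 39.6, 43.5 and 13.1 RPKM in healthy epithelium and at 90.8, 86.8, 190 and 108 in tumor epithelium. Every tumor library was above every healthy library, and the edgeR difference, which corrects for library composition, was 0.83 (SE 0.30, adjusted p = 0.0721). Egr2 differed by 1.26 (adjusted p = 0.201), Nr4a1 by 0.97 (adjusted p = 0.321), Junb by 0.89 (adjusted p = 0.112), Fosb by 0.76 (adjusted p = 0.191), Jun by 0.65 (adjusted p = 0.0994) and Ier2 by 0.59 (adjusted p = 0.205). Dusp1 differed by -0.08 (adjusted p = 0.921) and Fos by -0.16 (adjusted p = 0.84). The scale matters in this comparison: of the genes called by edgeR 48.8% were higher in tumor, whereas limma on log2(RPKM + 1) gave 73.3% and on log2(RPKM + 0.1) 76.8%. The median of all genes moved to 0.19 and 0.58 on those scales, and Fos (0.81 and 0.85) and Dusp1 (0.88 and 0.92) were then above 0.

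In stromal cells 0 of 10 genes were called higher in tumor and 1, Egr1, lower, beside 3.39% and 5.01% of 19081 genes tested. The median log2 fold change was -0.80 over the 10 genes and 0.03 over all genes. Egr1 was at 471, 349, 347 and 859 RPKM in healthy stromal cells, the highest levels of Egr1 in any group, and at 153, 109, 132 and 93.2 in tumor stromal cells. The groups did not overlap, and Egr1 fell by 1.70 (SE 0.41, adjusted p = 0.0354). Fos was at 195, 139, 112.5 and 239 RPKM in healthy and at 53.1, 42.4, 59.5 and 41.9 in tumor stromal cells, also apart. Its difference of -1.45 (SE 0.32, adjusted p = 0.025) was short of the fold threshold. In RPKM 5 genes, Fos, Fosb, Egr1, Dusp1 and Nr4a1, lay below healthy stromal cells and 0 above, against 17.3% and 4.21% of all genes. On the scale of non-mitochondrial counts 3 remained below, Fos, Egr1 and Dusp1, but the share of all genes on that scale was not computed.

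The Egr1 call in stromal cells was lost on leaving out any 1 of 7 of the 8 libraries, with adjusted p from 0.0298 to 0.0888. Without tumor stromal replicates 1 and 2, a choice made after seeing their markers, Egr1 differed by -1.90 (adjusted p = 0.0673) and 0 of 10 genes were called. In the same fit Egr2 differed by -0.91 and Atf3 by -0.66, whereas with all 8 libraries they differed by 0.76 and 0.17. Egr2 was at 28.4 and 20.8 RPKM in replicates 1 and 2, where epithelial markers were highest, and at 6.13 and 4.23 in replicates 3 and 4, against 12.97, 7.19, 13.2 and 14.1 in healthy stromal cells. Healthy stromal cells were not uniform either. Replicate 4, which had the highest Egr1, had fibroblast markers at a sum of 2010 RPKM, against 355 to 648 in the other healthy libraries. Its endothelial markers summed to 12.7 against 87.9 to 117, and its epithelial markers to 42.6 against 2.49 to 3.44. Fibroblast markers were far lower in all 4 tumor stromal libraries than in healthy stromal cells, and the part of cell mixture in the lower Egr1 was not tested. Of the genes called by edgeR 40.3% were higher in tumor, against 15.5% for limma on log2(RPKM + 1), where the median of all genes was -0.12.

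The change from healthy colon to tumor differed between epithelial and stromal cells for 3 of the 10 genes. In the interaction over 16 libraries Egr1 (2.55, SE 0.49, adjusted p = 0.00273), Junb (2.15, SE 0.57, adjusted p = 0.0192) and Fosb (1.64, SE 0.51, adjusted p = 0.0429) were called higher in epithelial cells and 0 lower, beside 6.81% and 7.25% of 20901 genes tested. All 10 differences were positive, with a median of 1.32 against -0.05 over all genes. The Egr1 and Junb calls held on leaving out any 1 of the 16 libraries. Fosb lost its call on leaving out any 1 of 12 of the 16, with adjusted p from 0.011 to 0.0855. Without tumor stromal replicates 1 and 2, Egr1 (2.77, adjusted p = 0.00707) and Junb (2.26, adjusted p = 0.0497) remained called and Fosb (1.68, adjusted p = 0.0905) did not. Without healthy epithelial replicate 1, singled out after its values were seen, 7 of the 10 were called. Over all genes, leaving out 1 library gave 2393 to 3046 calls, against 2938 with all 16. A healthy mouse gave a library of each cell type, as did some tumor-bearing mice.

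Among the 4 cell types of the tumor, all of them digested, neutrophils and monocytes were set against epithelial and stromal cells. Dusp1 and Junb were called higher in the myeloid cells and 0 genes lower, beside 14.9% and 16.3% of 19026 genes tested, and the median log2 difference was -0.40 over the 10 genes and -0.19 over all genes. Dusp1, the MAP kinase phosphatase, was at 174, 851, 394.5 and 305.5 RPKM in tumor neutrophils and at 127, 197, 175 and 225 in tumor monocytes. It was at 45.1, 40.1, 59.99 and 42.8 in tumor epithelial cells and at 45.6, 44.2, 135 and 106 in tumor stromal cells. Dusp1 was higher by 2.82 (SE 0.39, adjusted p = 4.1e-05). Junb was at 11.7, 33.9, 25.7 and 22.0 RPKM in tumor neutrophils and 9.26 to 20.5 in monocytes, against 5.998 to 12.1 in epithelial and 8.20 to 10.7 in stromal cells. It was higher by 1.63 (SE 0.29, adjusted p = 0.000361), and by 1.20 without tumor neutrophil replicate 2. Without tumor stromal replicates 1 and 2, Dusp1 was higher by 2.44 (adjusted p = 0.00108) and Junb by 1.502 (adjusted p = 0.00643). Several mice gave more than 1 of these cell types. With the animal as a block Dusp1 was still called (2.27, adjusted p = 0.0238) and Junb was not (1.15, adjusted p = 0.108), and the number of genes called fell from 5935 to 2066.

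In the 2 mice that each gave tumor neutrophils, monocytes and epithelial cells, the order of the 3 cell types was the same in both for 7 of the 10 genes. For Dusp1 it ran from neutrophils (394.5 and 305.5 RPKM) through monocytes (175 and 225) to epithelial cells (59.99 and 42.8). For Atf3 it ran the other way, from epithelial cells (189 and 147) through monocytes (38.6 and 53.1) to neutrophils (31.3 and 25.0). Fos, Fosb and Egr2 had the order of Atf3, while Egr1 and Ier2 were highest in epithelial cells and lowest in monocytes. The order of Jun, Junb and Nr4a1 differed between the 2 mice.

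Other genes of the early response were described from lists of related genes. In tumor against blood neutrophils 4 of 8 tested genes of other AP-1 and related factors were called higher and 0 lower, with Fosl1, another Fos family member, at 12.4 to 40.5 RPKM in tumor and 0.161 to 1.38 in blood (5.30, adjusted p = 0.00148). Maff, a small Maf protein, was higher by 3.48 (adjusted p = 0.00222). Of other early transcription factors 7 of 10 were called higher, among them Nr4a3 (8.31, adjusted p = 0.000496) and Nr4a2 (4.91, adjusted p = 0.00156), the other receptors of the Nr4a family, and Myc (6.81, adjusted p = 0.000562). Of effectors and RNA regulators 9 of 20 were called higher, such as Gadd45b (3.53, adjusted p = 0.00368), a stress sensor, and Ccn1 (6.38, adjusted p = 0.00106), a secreted matrix protein. Of MAP kinase phosphatases and ERK feedback genes 6 of 11 were called higher, among them Dusp2, Dusp16 and Dusp5 (3.84 to 5.29). Of these 4 lists 0 genes were called lower in tumor neutrophils. Of all genes tested there, 11.9% were called higher and 4.41% lower.

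Of 15 factors and kinases upstream of the early genes, 2 were called higher and 1 lower in neutrophils, beside 11.9% and 4.41% of all genes. The genes called higher were Crem (3.73, adjusted p = 0.000696), a CREB relative that is itself induced by cAMP, and Mapk8 (3.10, adjusted p = 0.0242), which encodes JNK1. Mrtfa, a coactivator of SRF, fell by 3.05 (adjusted p = 0.000917), from 7.20 to 9.55 RPKM in blood to 0.369 to 1.44 in tumor. Their median was -0.14, against 0.11 over all genes. In monocytes Crem was higher by 5.95 (adjusted p = 5.39e-06), and Mrtfa (-1.59, adjusted p = 0.0259) and Mapk14 (-1.57, adjusted p = 0.000926), which encodes p38 alpha, were lower, while the other 12 of 15 were not called. Of all genes tested in monocytes, 7.76% were called higher and 3.89% lower.

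In tumor against blood monocytes 5 of 10 genes of other AP-1 and related factors, 7 of 10 other early transcription factors, 11 of 19 effectors and RNA regulators and 5 of 11 MAP kinase phosphatases and ERK feedback genes were called higher, with 0 lower. The shares over all genes tested were 7.76% higher and 3.89% lower. Nr4a3 was at 18.5 to 26.1 RPKM in tumor and 0.168 to 0.556 in blood (6.46, adjusted p = 7.5e-06). Nr4a2 was higher by 4.83 (adjusted p = 0.000893), although Nr4a1 was not called in the same cells. Errfi1, a feedback inhibitor of the EGF receptor, was higher by 6.43 (adjusted p = 1.31e-05) and Dusp5, a nuclear ERK phosphatase, by 5.28 (adjusted p = 6.17e-05).

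Heat shock genes, which encode chaperones and are induced by heat and protein damage, were read beside the early genes. In tumor against blood 6 of 10 were called higher in neutrophils and 6 of 10 in monocytes, with 0 lower. Of all genes tested, 11.9% were called higher and 4.41% lower in neutrophils, and 7.76% and 3.89% in monocytes. Hspa1a was at 5.35 to 20.2 RPKM in tumor neutrophils and 0.177 to 0.695 in blood (4.28, adjusted p = 0.00114), and Hspa1b was higher by 3.76 in tumor monocytes (adjusted p = 0.00422). Hspb1 had 19 to 213 counts in tumor monocytes and 0 to 2 in blood. Hspa1a and Hspa1b are near-identical copies, so reads may have been split between them. Over all 40 libraries 8 of 10 heat shock genes were called higher in digested tissue, 0 lower, beside 24.2% and 13% of all genes tested. The part of heat shock in the rise of the early genes was not tested.

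The lists were also counted in the comparisons where both sides were digested, or neither was. In epithelial cells, where 7.52% of all genes tested were called higher and 7.88% lower, there were 0 higher and 1 lower of 8 other AP-1 genes (Batf2, -4.49, adjusted p = 0.004), 2 higher of 11 other transcription factors, 7 higher and 1 lower of 21 effectors, 2 higher of 12 phosphatases and feedback genes, 1 higher of 15 upstream factors and kinases and 1 higher of 10 heat shock genes. The upstream gene was Elk3, an ETS family partner of SRF (3.39, adjusted p = 0.000973). Egr3, an inducible relative of Egr1 and Egr2, was at 4.59 to 12.9 RPKM in tumor epithelium and 0.0452 to 0.947 in healthy epithelium (3.44, adjusted p = 0.0164). Csrnp1 (2.27, adjusted p = 0.0338), Socs3 (3.19, adjusted p = 0.00193), the cytokine signaling inhibitor, and Plk2 (2.77, adjusted p = 0.000694) were also higher. In stromal cells Klf4 fell by 1.62 (adjusted p = 0.0165), Mafg rose by 1.59 (adjusted p = 0.0303), and Dusp10 (2.21, adjusted p = 0.0319) and Dusp16 (1.90, adjusted p = 0.0082) were higher, with all 4 tumor stromal libraries in the fit, beside 3.39% of all genes called higher and 5.01% lower. In blood neutrophils of tumor-bearing against healthy mice Dusp2 fell by 3.45 (adjusted p = 0.0284), Btg2, an antiproliferative gene, fell by 1.57 (adjusted p = 0.0252) and Zfp36l1 rose by 2.09 (adjusted p = 0.0133), beside 1.79% of all genes called higher and 2.22% lower. In blood monocytes 0 of the 70 list genes tested were called with edgeR, and 17 had an unadjusted p under 0.05, where 0.0914% of all genes were called higher and 0.118% lower.

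**Figure D3:**
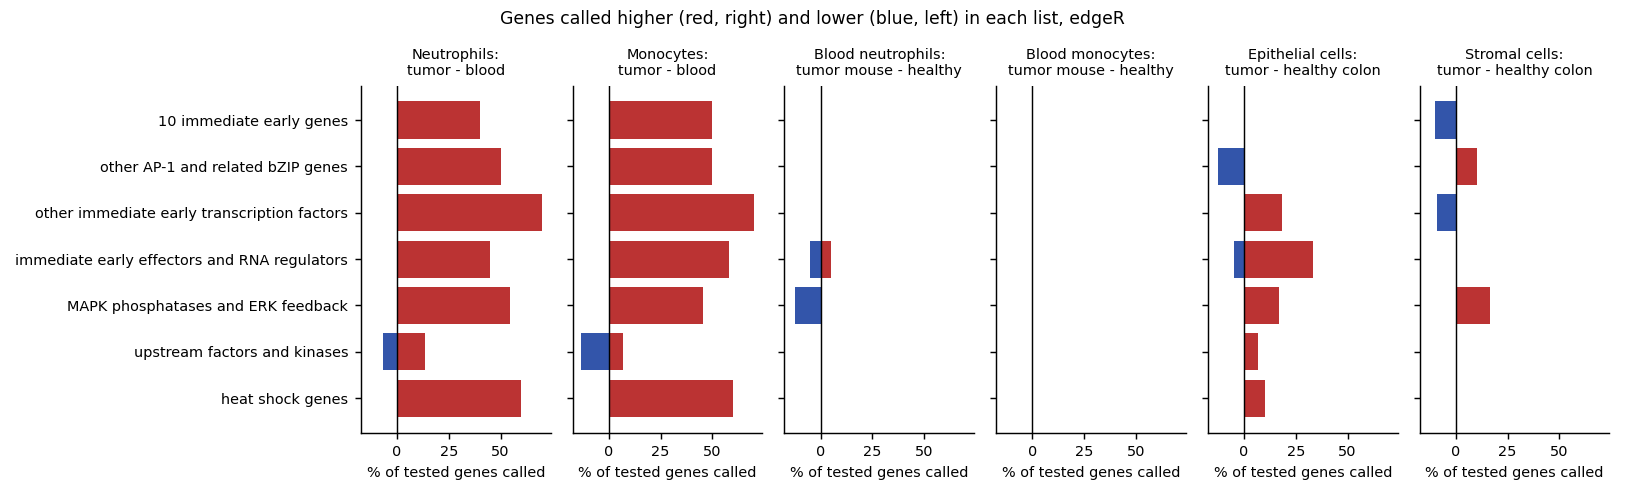
Share of tested genes called higher (red, to the right) and lower (blue, to the left) in each list of early response genes, by edgeR in 6 comparisons. In tumor against blood 4 to 9 genes of most lists were called higher in neutrophils and 5 to 11 in monocytes, while in blood monocytes 0 genes of any list were called. Over all genes tested, the share called higher in tumor was 11.9% in neutrophils and 7.76% in monocytes.

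Within groups, libraries with a high level of a member tended to be high for the others. For the deviations of log2(RPKM + 1) from the group means over 40 libraries, Pearson's r was above 0 for 44 of the 45 pairs of genes, with a median of 0.53. It was highest between Fos and Fosb (0.84) and between Atf3 and Nr4a1 (0.82), and lowest between Egr2 and Dusp1 (-0.04). These values are descriptive, since the libraries of a group share a sort and differ together in depth, mitochondrial share and admixed cells. Across the 10 group means the median r over the same 45 pairs was 0.52. The profile of Egr1 followed the mean profile of the members with r of 0.91 and that of Fosb with 0.91, against 0.45 for Dusp1 and 0.43 for Junb. Among 4881 genes the profiles most like that mean profile over the 10 groups were Sertad1 (r = 0.97), Slc38a2 (0.95), Gadd45g (0.95), Fbxo30 (0.95) and Plk2 (0.94). Sertad1 averaged 9.46 RPKM in healthy stromal cells and 0.784 in healthy blood monocytes.

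**Figure D4:**
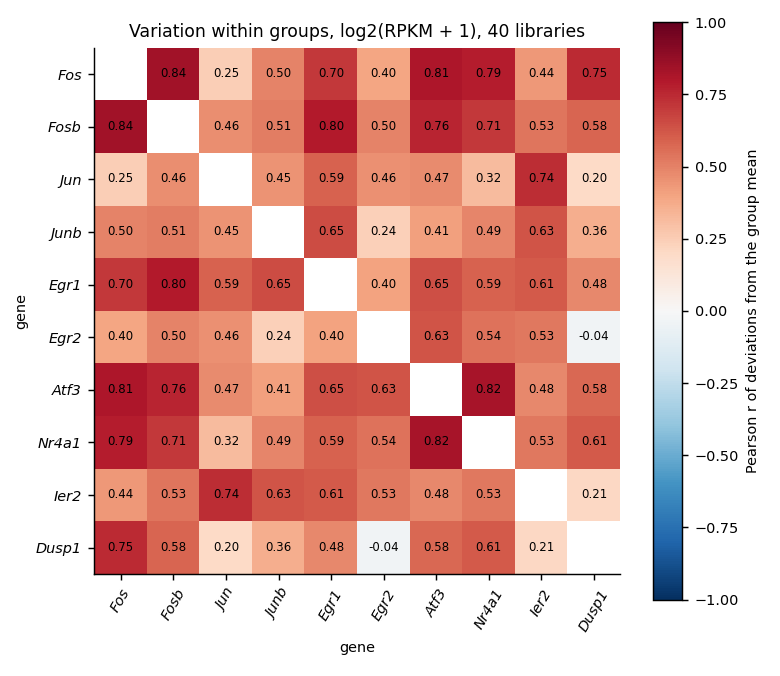
Pearson's r between immediate early genes of their deviations from the group mean in log2(RPKM + 1), over 40 libraries. Red marks positive values; 44 of the 45 pairs were above 0, from -0.04 for Egr2 with Dusp1 to 0.84 for Fos with Fosb.

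Counted over all 11 comparisons, Fos and Ier2 were called in 0. The levels of Fos lay between 6.54 and 239 RPKM in every library, and those of Ier2 between 2.44 and 44.8, so both were expressed in all 10 groups. In RPKM Fos was highest in healthy stromal cells, whose lowest library (112.5) exceeded the highest of every other group. Per non-mitochondrial count the healthy stromal range of Fos (133 to 318) overlapped that of healthy epithelial cells (40.5 to 228). In the order of means of Ier2 in RPKM every group overlapped its neighbor. Comparisons with the same libraries on a side are not independent of each other: tumor against blood and tumor-bearing against healthy blood share the blood libraries of tumor-bearing mice.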

How the data were processed

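RNA of sorted cells had been amplified, sequenced and aligned to mm10 with Bowtie2 by the authors. The deposited expected counts per gene are estimates, of which 99.6% of nonzero values were not whole, and they were rounded here. The deposited RPKM values are the same counts, scaled by the authors for gene length and library. The annotation release, strand setting and treatment of multiply mapped reads are not given in the sources used here. Counts were filtered for low values with filterByExpr, scaled by TMM and tested with edgeR 4.0.16 (quasi-likelihood, robust) in R 4.3.3. Only the compared groups entered each fit, and Benjamini-Hochberg adjustment ran over all genes tested. Standard errors were derived from the fold change and F statistic. Alternatives used DESeq2 1.42.0, limma 3.58.1, other filters and scales, and left out libraries. The tests were checked on simulated data. The members and lists were chosen with earlier results of these data known. All members are named, and of each other list up to 3 called genes with the largest fold changes among those without overlap in RPKM. The p-values measure the spread between libraries, 4 per group, some of which pooled animals. Symbols were found for 45143 of 45706 genes.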

Additional observations from a re-analysis of the deposited data

Results flagged for a closer look

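Single libraries stood apart from the other 3 of their group in 14 of 100 groups of 4. The measure was the ratio of their gap to the range of the group, above Dixon's critical value. Chance would give about 5 if values were normal and the tests independent. RPKM was used without a log transform, and the genes share libraries and correlate within groups (median Pearson's r of 0.53). The count of 14 therefore cannot be weighed against 5. Tumor-bearing blood monocyte replicate 1 was highest for Jun (21.16 RPKM), Egr1 (8.836) and Egr2 (0.9203). Healthy colon epithelial replicate 1 was highest for Egr2 (10.89), Atf3 (99.61) and Nr4a1 (21.9). Tumor neutrophil replicate 2 was highest for Egr1 (166.4) and Nr4a1 (41.7), and healthy stromal replicate 4 for Dusp1 (446.8) and Nr4a1 (113.2). The others were Egr1 in healthy blood monocyte replicate 4 (4.423, highest), Ier2 in tumor-bearing blood neutrophil replicate 4 (23.78, highest), Ier2 in healthy blood monocyte replicate 2 (2.921, lowest) and Egr2 in healthy stromal replicate 2 (7.191, lowest).

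Effects that differed between cell types by an edgeR interaction test were Nr4a1, whose log2 change from blood to tumor was 3.626 higher in neutrophils than in monocytes. The change from healthy colon to tumor was higher in epithelial than in stromal cells by 2.547 for Egr1, 2.151 for Junb and 1.635 for Fosb.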

How the results depend on the processing

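Of 60 log2 fold changes, those of 10 genes in 6 comparisons, all 60 kept their direction and call with RLE size factors and with mitochondrial genes removed, 57 with DESeq2, 48 with limma-voom, and 46 and 44 with limma on log2(RPKM + 1) and log2(RPKM + 0.1). The values that changed sign were not called in edgeR. In tumor neutrophils Fos was at -0.069 with voom, -0.056 in the fit of all 40 libraries, and -0.11 and -0.11 on the RPKM scales (pseudocounts 1 and 0.1), and Junb at -0.088, -0.053, -0.12 and -0.12. On those 2 scales Ier2 was at -0.065 and -0.078 in tumor monocytes, and Ier2 at -0.034 and -0.0405 and Nr4a1 at -0.15 and -0.16 in blood monocytes, where voom gave Nr4a1 -0.028. Voom gave Egr2 -0.037 in blood neutrophils. In epithelial cells Fos was at 0.17 with voom and 0.81 and 0.85 on the RPKM scales, and Dusp1 at 0.21, 0.88 and 0.92. In stromal cells Egr2 was at -0.0086 and -0.040 on the RPKM scales and -0.91 without tumor replicates 1 and 2, and Atf3 at -0.082, -0.082 and -0.66. The causes were not tested.

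The number of the 10 genes called moved as follows. In tumor monocytes it was 3 with log2(RPKM + 1) and 3 to 6 on leaving out a library. In blood neutrophils it was 2 with DESeq2, 2 with voom, 1 with 10 or more counts in every library, 1 in the fit of all 40 libraries, 1 on each RPKM scale, and 0 to 2 on leaving out a library. In epithelial cells it was 2 with voom, 3 with log2(RPKM + 0.1) and 0 to 3. In stromal cells it was 2 with no fold threshold, 2 with 10 counts in every library, 0 in the fit of all 40 libraries, 3 on each RPKM scale, 0 without tumor replicates 1 and 2, and 0 to 2. For the difference between neutrophils and monocytes it was 2 with DESeq2, 2 with 10 counts in every library, 2 in the fit of all 40 libraries, and 0 to 1. For that between epithelial and stromal cells it was 2 to 7. It was 8 with no fold threshold between healthy colon and blood. Between tumor cell types it was 6 with no fold threshold, 1 with voom, 1 with the animal block, and 1 to 3. Of the 10 genes 4, not 6, were highest in healthy stromal cells per non-mitochondrial count. In tumor neutrophils leaving out a library gave 4 to 5. Leaving out libraries was not run for digested tissue against blood.

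By the labels, compared libraries with the same replicate number came from different mice, except replicate 1 of tumor and of blood monocytes. Correlations of deviations between libraries with the same number ran from -0.17 to 0.24. They do not settle pairing, since the libraries from the same mouse also had a low value (-0.12). With a replicate block Fosb in tumor neutrophils was 3.71 (adjusted p = 0.0568 in edgeR) and lost its call, Fos was -0.18 and Junb -0.084. Nr4a1 in blood monocytes was -0.063, and Fos and Dusp1 in epithelial cells were 0.12 and 0.17. With the block 1 gene was called in epithelial cells, 0 in stromal cells and 0 for the difference between neutrophils and monocytes.

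Counts over all genes moved by more than 1.5 times in several fits. In neutrophils 2229 became 642 with log2(RPKM + 1), 1270 with 10 counts in every library, 1407 with the block and 5995 in the fit of all 40 libraries, and in monocytes 1781 became 501 with log2(RPKM + 1) and 2803 in the fit of all 40. In blood neutrophils 536 became 98 with log2(RPKM + 1), 353 with the block and 868 with DESeq2, and in blood monocytes 32 became 2 to 263. In epithelial cells 2476 became 472 and in stromal cells 1602 became 490 with log2(RPKM + 1), and 1246 and 947 with 10 counts in every library. DESeq2 gave 2707 in stromal cells. For the difference between neutrophils and monocytes 690 became 397 to 1994. With 10 counts in every library the epithelial and stromal difference fell from 2938 to 1219, digested tissue against blood from 8225 to 878, healthy colon against blood from 8869 to 1762 and tumor cell types from 5935 to 1537.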
